A study of Homo sapiens with 11 samples.

Results

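The genes described here are 10 stress-handling genes: the small heat shock protein genes HSPB1, HSPB8 and CRYAB, the secreted chaperone gene clusterin (CLU), the BAG family co-chaperone genes BAG1, BAG2, BAG3, BAG4 and BAG5, and STUB1, which encodes the ubiquitin ligase CHIP. They were chosen by their symbols in the probe annotation, with earlier results of these data known. Counts of calls among them, set beside the share of all genes, are therefore a description only. All 10 were represented, by 19 of the 41000 probes on the array. All 10 genes were among the 17372 genes tested, and all 19 probes were among the 37422 probes kept. The array was the Agilent whole human genome array, and the cells were CCRF-CEM, an established line of human T-cell acute lymphoblastic leukemia cells. The study asked how CCRF-CEM cells become resistant to bortezomib (BTZ), a drug that blocks the proteasome. The 11 samples fell into 6 groups. CEM/WT_BTZ was the parental line after 24 h in 7 nM BTZ (n = 3). CEM/BTZ7 (n = 3), CEM/BTZ100 (n = 1) and CEM/BTZ200 (n = 1) were sublines selected in 7, 100 and 200 nM BTZ and given fresh drug at that concentration 24 h before RNA was taken. CEM/BTZ-200 (n = 1) was the subline selected in 200 nM and then grown without drug. CEM/WT was the untreated parental line (n = 2). All groups derived from this 1 line. The labels place the sublines in drug up to the 24 h before harvest, whereas the methods describe drug-free days before a last exposure of 24 h, so the drug history of the sublines is not settled. The replicates are numbered, but no source says that they were separate cultures, and the p-values therefore measure only how far these samples vary, which may be technical variation.

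Small heat shock proteins are holdases that bind unfolding proteins and keep them soluble without using ATP, and they pass their clients to the HSP70 machine. BAG proteins share a domain that binds the ATPase part of HSP70 and makes it release its client. BAG1 links HSP70 to the proteasome, BAG3 together with HSPB8 and CHIP steers clients to autophagy, and BAG2 and BAG5 are known to inhibit CHIP. Clusterin is a chaperone that is mostly secreted. Blocking the proteasome is known to activate the heat shock factor HSF1, whose binding site, the heat shock element, is built from repeats of nGAAn in alternating orientation.

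The sequences just upstream of 4 of the genes are shown because they differ in the letters of the heat shock element, while the genes differ in how they moved with BTZ. RefSeq promoter windows (build GRCh38.p14) were used for 6 of the 10 genes, and the 250 bases before the annotated start are printed here 5′ to 3′ on the gene's strand. Upstream sequences of the other genes, CLU among them, were not examined. The windows lie on the plus strand at chr6:57172076-57172325 for BAG2, chr10:119651130-119651379 for BAG3, chr7:76302423-76302672 for HSPB1 and chr12:119178681-119178930 for HSPB8. Capitals mark the fixed letters of GAANNTTC, a pair of inverted repeat units. The search also covered TTCNNGAA, and each of these motifs reads the same on both strands.
BAG2: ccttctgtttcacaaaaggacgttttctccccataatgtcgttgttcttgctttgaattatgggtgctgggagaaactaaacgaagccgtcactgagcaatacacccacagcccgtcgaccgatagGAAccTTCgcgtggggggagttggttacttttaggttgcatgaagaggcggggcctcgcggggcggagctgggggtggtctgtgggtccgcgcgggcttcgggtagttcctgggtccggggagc
BAG3: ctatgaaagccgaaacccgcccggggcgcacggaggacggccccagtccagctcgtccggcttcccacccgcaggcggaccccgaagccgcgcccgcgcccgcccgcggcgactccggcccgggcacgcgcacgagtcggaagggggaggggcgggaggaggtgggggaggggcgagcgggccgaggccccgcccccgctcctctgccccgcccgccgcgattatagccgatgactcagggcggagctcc
HSPB1: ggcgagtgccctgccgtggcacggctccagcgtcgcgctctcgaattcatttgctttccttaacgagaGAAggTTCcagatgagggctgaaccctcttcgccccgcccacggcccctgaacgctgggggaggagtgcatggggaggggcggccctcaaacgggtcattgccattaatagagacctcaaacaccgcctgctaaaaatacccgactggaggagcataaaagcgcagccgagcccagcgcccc
HSPB8: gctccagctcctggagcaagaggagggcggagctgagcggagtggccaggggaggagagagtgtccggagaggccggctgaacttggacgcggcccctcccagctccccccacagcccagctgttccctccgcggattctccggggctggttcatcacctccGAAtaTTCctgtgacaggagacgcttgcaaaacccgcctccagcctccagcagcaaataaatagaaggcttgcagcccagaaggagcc
GAANNTTC stood from 124 to 117 bases before the start of BAG2, from 182 to 175 bases before that of HSPB1 and from 88 to 81 bases before that of HSPB8. No match to GAANNTTC or TTCNNGAA was found in the windows of BAG3, BAG1 and BAG5, the last of which has 2 starts. Of 35116 promoter windows of the same length, 5.78% held GAANNTTC, 11.6% held GAANNTTC or TTCNNGAA, and 0.441% held either longer form. These matches describe the printed letters only.

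Levels are given as quantile-normalized intensities, an arbitrary unit that compares samples but not genes. Where a gene had several probes, the one with the highest mean log2 intensity over the 11 samples stood for it. Median intensities before normalization ranged from 124 to 188.5 in 9 samples and were 67.96 in CEM/BTZ200 and 67.3 in CEM/BTZ-200. Between 73.8% and 89% of probes exceeded background, the 95th percentile of 153 negative control spots. The number of samples, 1 in 3 of the groups, limits the precision. Of 10 T lymphoblast markers, 9 were on the array and all 9 exceeded background in all 11 samples. The summed intensity of 3 measured B cell markers, CD79A above all, was 17287 to 36908 in CEM/WT_BTZ, against 9772 to 13352 in CEM/WT. That of 4 epithelial markers was 4663 to 7708 in CEM/WT_BTZ, against 2516 to 2959 in CEM/WT, and that of 2 globin genes 942 to 3270 in CEM/WT_BTZ, against 349 to 612 in CEM/WT. That of 5 myeloid markers was 494 to 595 in CEM/WT_BTZ, against 1494 to 1824 in CEM/WT. Of 4 B cell markers on the array 3 exceeded background in all 11 samples, and the defining marker MS4A1 did so in 1. Of 5 epithelial markers 4 exceeded background in all 11 samples, and CDH1 did so in 0. The summed intensity of the 9 T lymphoblast markers was 85447 to 108807 in CEM/WT_BTZ, against 105814 to 146703 in CEM/WT. Single genes weighed heavily in some sums. HBA1, from 177 to 3231 over the 11 samples, made up most of the globin sum, where HBB had 29.1 to 121. CSF1R, from 23.3 to 2189, varied most among the myeloid markers. All samples are cultures of 1 cell line, and the markers were listed as a check of the label only. The part of these markers in the results was not tested. These are bulk samples, in which fewer cells with a transcript and less of it per cell cannot be told apart.

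**Figure D1:**
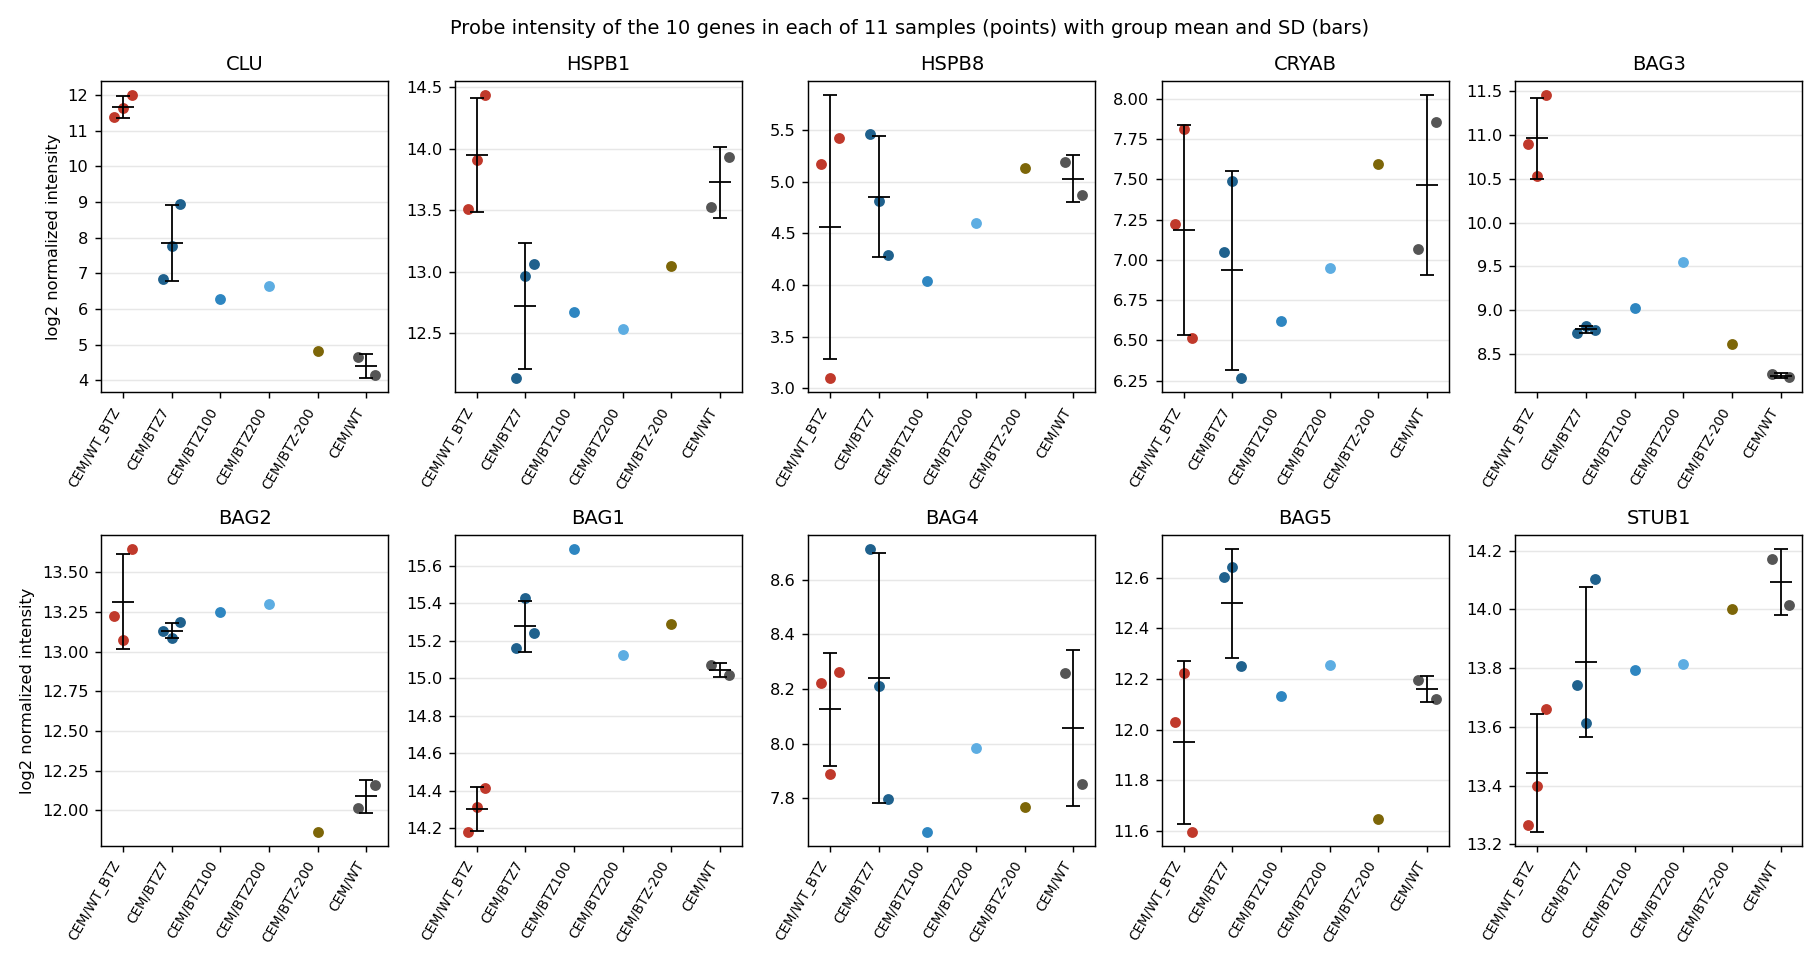
Log2 normalized intensity (vertical axes, a different range in each panel) of the 10 genes in each of the 11 samples by group (horizontal axes), where points are samples and bars give the group mean and SD for groups with replicates. CLU and BAG3 were highest in the 3 CEM/WT_BTZ samples, and BAG1 was lowest there.

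In the parental line, 24 h of BTZ was accompanied by more CLU, BAG3 and BAG2 and by less BAG1 than in untreated cells. CLU differed 145-fold on the probe used, over CEM/WT values close to background. BAG3 differed 6.74-fold and BAG2 2.39-fold, and BAG1 was 1.66-fold lower. In this comparison of CEM/WT_BTZ with CEM/WT, 3 of the 10 genes were called higher, against 6.49% of all genes, and 1 was called lower, against 9.01% (limma, adjusted p under 0.05, Benjamini-Hochberg over 17372 genes). In either direction 15.5% of all genes were called. Groups of this size often did not overlap: 21.3% of all genes were higher in every CEM/WT_BTZ sample than in every CEM/WT sample, and 25% were lower in every one. The median log2 difference was -0.06 over the 10 genes and -0.02 over all genes.

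CLU, the secreted chaperone, had intensities of 2681, 3162 and 4093 in the CEM/WT_BTZ samples. It had 25.0 and 17.8 in the CEM/WT samples. The groups lay far apart. The CEM/WT values were above the background of those samples, 10.4 and 7.56, but close to it, so the size of the fold is uncertain. The log2 difference was 7.18 ± 0.54 (SE, limma adjusted p = 0.00209). These values come from 1 of 2 CLU probes, and the values in CEM/WT_BTZ decided which of them stood for the gene. The mean log2 intensity over all 11 samples was 7.74 for the probe used and 7.05 for the second probe, but over the 8 samples other than CEM/WT_BTZ it was 6.26 for the probe used and 6.84 for the second. The second probe gave a log2 difference of 0.74, which was not called (limma adjusted p = 0.162). On the log2 values deposited by the authors it was 5.21 (limma adjusted p = 0.000956), a smaller fold with the same call. The call was kept with each replicate left out in turn, with log2 differences from 6.53 to 7.41.

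BAG3, the BAG protein of chaperone-assisted autophagy, had 1904, 1482 and 2807 in CEM/WT_BTZ, against 309 and 300.4 in CEM/WT. Every treated sample was above both untreated ones. The log2 difference was 2.75 ± 0.26 (SE, limma adjusted p = 0.00354). A dimmer second BAG3 probe gave 2.63 ± 0.46 (SE, limma adjusted p = 0.0213 over all probes), and the call of the brighter one was kept with each replicate left out.

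BAG2, an inhibitor of CHIP, had 9571, 8604 and 12840 in CEM/WT_BTZ, against 4141 and 4582 in CEM/WT. The groups did not overlap, and the log2 difference was 1.26 ± 0.21 (SE, limma adjusted p = 0.0132). Without CEM/WT replicate 1 or replicate 2 the call was lost (adjusted p up to 0.117). BAG1, the BAG protein that docks HSP70 to the proteasome, had 18569, 20367 and 21830 in CEM/WT_BTZ, against 34396 and 33221 in CEM/WT. It was lower in all 3 treated samples, by -0.73 ± 0.19 on the log2 scale (SE, limma adjusted p = 0.0461). That call stood close to the threshold and was lost with any of the 8 replicates left out (adjusted p from 0.0625 to 0.288). It was also lost in 4 of the other settings: scaling to the 75th percentile, the log2 values of the authors, dyes by rank match and only the groups compared (adjusted p from 0.0521 to 0.104).

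STUB1, the gene of CHIP, had 9860, 10807 and 12958 in CEM/WT_BTZ, against 18472 and 16537 in CEM/WT. The groups did not overlap, yet the log2 difference of -0.66 ± 0.23 (SE) did not pass the test (limma adjusted p = 0.108). The small heat shock genes were not called. HSPB1, the most widely expressed of them, had 11654, 15379 and 22171 in CEM/WT_BTZ, against 11788 and 15626 in CEM/WT, so the untreated values lay inside the range of the treated ones. Its log2 difference of 0.25 had a 95% interval from -0.70 to 1.21. CRYAB, the αB-crystallin gene, had 149, 225 and 91.5 in CEM/WT_BTZ, against 134 and 232 in CEM/WT. HSPB8, the partner of BAG3, stood near background throughout, at 35.9, 8.56 and 42.8 in CEM/WT_BTZ, against 36.5 and 29.2 in CEM/WT. Only CEM/WT_BTZ replicate 2 fell below the background of its sample, 8.59, among all 11 samples. BAG4 and BAG5 differed by 0.10 ± 0.31 and -0.22 ± 0.26 on the log2 scale (SE), and neither was called.

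Lists of related genes, written with earlier results of these data known, were counted by calls. Of all genes 6.49% were called higher and 9.01% lower in CEM/WT_BTZ than in CEM/WT. The HSP70 genes, whose products BAG proteins act on, and the related HSP110 genes gave 4 of 9 tested members higher and 0 lower, with a median log2 difference of 2.10. HSPA1A and HSPA6, the stress-inducible HSP70 genes, rose by 6.22 and 6.17 on the log2 scale (limma adjusted p = 0.00122 for both). HSPA1A has a near-identical copy, HSPA1B, and a probe may read both. Of the HSP90, HSP40 and heat shock factor genes, 6 of 14 rose and 0 fell, with a median of 1.37. DNAJB1, the HSP40 that works with HSP70, rose by 4.38 (limma adjusted p = 0.00122). Of the chaperone-assisted autophagy and CHIP-linked genes, 3 of 7 rose and 0 fell: GABARAPL1 and MAP1LC3B, of the family that coats autophagosomes, and SQSTM1, the autophagy receptor p62. The other small heat shock and BAG genes (6 tested) and the clusterin receptors and relatives (3 tested) had 0 calls and medians of -0.11 and 0.15, with 2 genes and 1 gene at an unadjusted p under 0.05 (limma).

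Against the treated parental line, CEM/BTZ7 cells after 24 h in the same 7 nM BTZ had less CLU, BAG3 and HSPB1 and more BAG1. CLU was 12.4-fold, BAG3 4.82-fold and HSPB1 2.45-fold lower, and BAG1 was 1.94-fold higher. The CLU fold and call come from the probe that stood for the gene because of its CEM/WT_BTZ values. In this comparison 3 of the 10 genes were called lower, against 10.1% of all genes, and 1 was called higher, against 12.2%. In either direction 22.3% of all genes were called. Marker sums differed in this comparison too. The B cell sum was 5271 to 8799 in CEM/BTZ7, against 17287 to 36908 in CEM/WT_BTZ, and the globin sum 286 to 553 in CEM/BTZ7, against 942 to 3270 in CEM/WT_BTZ. The T lymphoblast sum was 129986 to 153271 in CEM/BTZ7, against 85447 to 108807 in CEM/WT_BTZ, without overlap. The epithelial sum was 4503 to 6030 in CEM/BTZ7, against 4663 to 7708 in CEM/WT_BTZ, and the myeloid sum 398 to 2531 in CEM/BTZ7, against 494 to 595 in CEM/WT_BTZ, both with overlap. Their part in the results was not tested. The comparison shares the CEM/WT_BTZ samples with the one before, and later ones against CEM/WT share that group, so signs in these comparisons are not independent of each other.

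CLU had 114, 216 and 496 in CEM/BTZ7, against 2681, 3162 and 4093 in CEM/WT_BTZ. The CEM/BTZ7 samples were spread widely among themselves but stayed below every treated parental sample, with a log2 difference of -3.64 ± 0.50 (SE, limma adjusted p = 0.00539). The second CLU probe gave -0.74, which was not called (limma adjusted p = 0.116). BAG3 had 426, 453 and 439 in CEM/BTZ7, against 1904, 1482 and 2807 in CEM/WT_BTZ. The CEM/BTZ7 samples lay close together and well below the others, and the log2 difference was -2.27 ± 0.24 (SE, limma adjusted p = 0.00276). On the probes used, both calls were kept with each replicate left out. The dimmer BAG3 probe gave -1.65 ± 0.43 (SE, limma adjusted p = 0.0458 over all probes).

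BAG1 had 36671, 44117 and 38738 in CEM/BTZ7, against 18569, 20367 and 21830 in CEM/WT_BTZ. Every CEM/BTZ7 sample was above every treated parental one, an order that 22.7% of all genes showed, and the log2 difference was 0.95 ± 0.17 (SE, limma adjusted p = 0.0125). The call was lost without CEM/BTZ7 replicate 2 or replicate 3 (adjusted p up to 0.0669). It was also lost with scaling to the 75th percentile (log2 difference 0.70, limma adjusted p = 0.0733). HSPB1 had 4500, 7990 and 8580 in CEM/BTZ7, against 11654, 15379 and 22171 in CEM/WT_BTZ. The groups did not overlap, which was so for 19.9% of all genes in this direction, and the log2 difference was -1.29 ± 0.37 (SE, limma adjusted p = 0.0497). That call was lost with any of the 8 replicates left out (adjusted p from 0.0503 to 0.205). Scaling to the 75th percentile, no filter and the mean over probes lost it too (limma adjusted p from 0.0527 to 0.0823). The dimmer 2 HSPB1 probes gave -1.32 ± 0.49 and -1.39 ± 0.51 (SE), and none of the 3 probes passed when p was adjusted over all probes in place of genes (limma adjusted p from 0.0616 to 0.120).

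BAG2 was not called. It had 8972, 8687 and 9310 in CEM/BTZ7, against 9571, 8604 and 12840 in CEM/WT_BTZ, and the groups overlapped. The log2 difference of -0.25 had a 95% interval from -0.71 to 0.22 (limma adjusted p = 0.419). BAG5, which also inhibits CHIP, had 6225, 6386 and 4874 in CEM/BTZ7, against 4187, 4788 and 3097 in CEM/WT_BTZ. All 3 CEM/BTZ7 values were higher, but the log2 difference of 0.57 ± 0.24 (SE) was not called (limma adjusted p = 0.138). BAG5 passed in 2 alternatives. The mean over its 3 probes gave 0.89 (limma adjusted p = 0.0443). A fit with the replicate number as a block gave 0.58 (limma adjusted p = 0.0166). STUB1, BAG4, CRYAB and HSPB8 had log2 differences from -0.32 to 0.40 and were not called.

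Of the HSP90, HSP40 and heat shock factor genes, 8 of 14 fell and 0 rose in CEM/BTZ7 against CEM/WT_BTZ, with a median of -0.95, against 0.01 over all genes. These list counts are of called genes, where 10.1% of all genes were called lower and 12.2% higher. DNAJB1 fell by 4.56 on the log2 scale (limma adjusted p = 0.000492). Of the HSP70 and HSP110 genes 3 of 9 fell and 1 rose. HSPA6 fell by 6.35 (limma adjusted p = 0.000518), and HSPA2, a member best known from the testis, rose by 1.75 (limma adjusted p = 0.00866). The same 3 autophagy genes named above fell, of 7 tested. HSPB9, a small heat shock gene known from the testis, fell by 2.47 (limma adjusted p = 0.0363), 1 of 6 in its list. VLDLR, a lipoprotein receptor that binds clusterin, fell by 1.11 (limma adjusted p = 0.0284), 1 of 3.

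**Figure D2:**
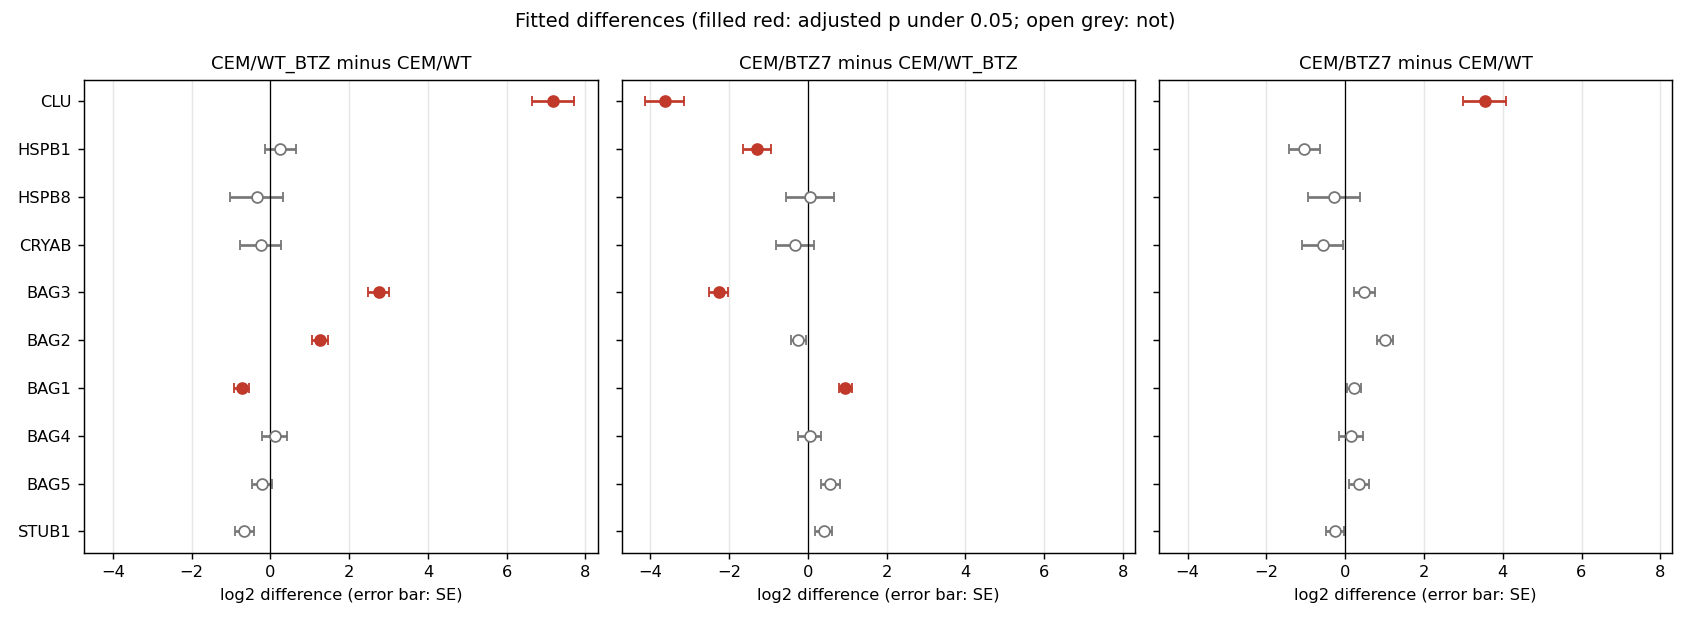
Log2 differences with standard errors (horizontal axes) for the 10 genes in 3 comparisons, filled red where the limma adjusted p was under 0.05 and open grey where it was not. CLU and BAG3 lay to the right of 0 in CEM/WT_BTZ minus CEM/WT and to the left in CEM/BTZ7 minus CEM/WT_BTZ, and CLU was the 1 gene called in CEM/BTZ7 minus CEM/WT.

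Against untreated CEM/WT, CEM/BTZ7 under drug had 1 of the 10 genes called higher, CLU, and 0 called lower, where 1.9% of all genes were called higher and 3.44% in either direction. CLU had 114, 216 and 496 in CEM/BTZ7, against 25.0 and 17.8 in CEM/WT, an 11.6-fold difference. This fold too was taken over CEM/WT values close to background. The log2 difference was 3.54 ± 0.54 (SE, limma adjusted p = 0.0211). On the log2 values of the authors it was 1.71 and not called (limma adjusted p = 0.119). The second CLU probe gave -0.00177, which was not called (limma adjusted p = 0.999). The call was also lost without CEM/WT replicate 1 or 2 or CEM/BTZ7 replicate 2 or 3 (adjusted p up to 0.222).

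BAG2 had 8972, 8687 and 9310 in CEM/BTZ7, against 4141 and 4582 in CEM/WT. All CEM/BTZ7 values were about 2.02-fold higher, a log2 difference of 1.01 ± 0.21 (SE, limma adjusted p = 0.0601), which missed the threshold and passed it in 7 of 18 alternative settings. BAG3 had 426, 453 and 439 in CEM/BTZ7, against 309 and 300.4 in CEM/WT. The values did not overlap, as for 17% of all genes in this direction, but the log2 difference of 0.48 ± 0.26 (SE) was not called (limma adjusted p = 0.481). HSPB1 had 4500, 7990 and 8580 in CEM/BTZ7, against 11788 and 15626 in CEM/WT. Both untreated values were higher than all 3, which was so for 16.4% of all genes, and the log2 difference of -1.04 ± 0.39 (SE) was not called (limma adjusted p = 0.286). BAG1 differed by 0.22 ± 0.19 (SE), with a 95% interval from -0.23 to 0.67. Of the other lists, 2 of 9 HSP70 and HSP110 genes and 1 of 7 autophagy genes were called higher, against 1.9% of all genes (limma). They were HSPA1A, by 2.79, HSPA4L, by 2.72, and GABARAPL1, by 3.62, on the log2 scale. In the remaining 3 lists 0 genes were called. At an unadjusted p under 0.05 (limma) these had 2 HSP90, HSP40 and heat shock factor genes, 1 other small heat shock or BAG gene and 1 clusterin receptor or relative.

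In the sublines with 1 sample each, the spread of the replicated groups stood in for their own. Against CEM/WT, 0 of the 10 genes were called in CEM/BTZ100, CEM/BTZ200 or CEM/BTZ-200 (limma), where 2.59%, 3% and 3.07% of all genes were called. At an unadjusted p under 0.05 there were 3 genes in CEM/BTZ100 (BAG1, BAG2 and BAG3), 3 in CEM/BTZ200 (CLU, BAG2 and BAG3) and 0 in CEM/BTZ-200. BAG2 had 9741 in CEM/BTZ100, 10070 in CEM/BTZ200 and 3726 in CEM/BTZ-200, against 4141 and 4582 in CEM/WT. The drug-free subline was below both untreated parental samples, and the sublines under drug were above them. The log2 differences were 1.26 ± 0.29, 1.31 ± 0.29 and -0.32 ± 0.29 (SE, limma adjusted p = 0.0934, 0.0785 and 0.657).

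BAG3 had 522 in CEM/BTZ100, 751 in CEM/BTZ200 and 391 in CEM/BTZ-200, against 309 and 300.4 in CEM/WT. CLU had 77.2 in CEM/BTZ100, 101 in CEM/BTZ200 and 28.4 in CEM/BTZ-200, against 25.0 and 17.8 in CEM/WT, with a background of 22.2 in the CEM/BTZ-200 sample. The drug-free subline thus lay just above background and close to the untreated parental line. HSPB1 had 6533 in CEM/BTZ100, 5933 in CEM/BTZ200 and 8469 in CEM/BTZ-200, against 11788 and 15626 in CEM/WT.

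Against CEM/WT_BTZ, CEM/BTZ100 had 1 of the 10 genes called higher, against 5.62% of all genes, and 2 called lower, against 4.7%. In either direction 10.3% of all genes were called. The CLU values below are from the probe that stood for the gene because of its CEM/WT_BTZ values. Against CEM/WT_BTZ the second CLU probe gave log2 differences of -1.48 in CEM/BTZ100 and -0.94 in CEM/BTZ200, and neither was called. BAG1 was 2.66-fold higher, with 52890 in CEM/BTZ100, against 18569 to 21830 in CEM/WT_BTZ (log2 difference 1.41 ± 0.24, SE, limma adjusted p = 0.0212). CLU was 48.0-fold lower (log2 difference -5.59 ± 0.69, SE, limma adjusted p = 0.0101) and BAG3 3.60-fold lower (-1.85 ± 0.34, SE, limma adjusted p = 0.0241). The BAG1 call was lost without CEM/BTZ7 replicate 2 or either of CEM/WT_BTZ replicates 1 and 2 (adjusted p up to 0.0730). The BAG3 call was lost without CEM/WT_BTZ replicate 1 or CEM/BTZ7 replicate 2 (adjusted p up to 0.0749). In CEM/BTZ200 against CEM/WT_BTZ, 1 of the 10 genes was called, CLU, which was 36.8-fold lower (limma adjusted p = 0.0129), where 3.7% of all genes were called lower and 7.61% in either direction. BAG3 and BAG1 differed by -1.32 ± 0.34 and 0.85 ± 0.24 there (SE, limma adjusted p = 0.0659 and 0.0858).

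The 200 nM subline was measured with and without drug, 1 sample each. The sample under drug carried Cy3 and the drug-free one Cy5, so drug and dye were not separable within this pair. The log2 differences here rest on a dye term estimated from the groups with replicates, whereas the printed intensities are not adjusted for dye. That term (Cy5 minus Cy3, log2) was 0.19 for BAG2, 0.26 for BAG3 and -0.56 for CLU. In CEM/BTZ200 minus CEM/BTZ-200, 0 of the 10 genes were called (limma), where 0.317% of all genes were called, and BAG2 and BAG3 were under an unadjusted p of 0.05. BAG2 had 10070 in CEM/BTZ200, against 3726 in CEM/BTZ-200, a log2 difference of 1.63 ± 0.36 (SE, limma adjusted p = 0.175). BAG3 had 751 in CEM/BTZ200, against 391 in CEM/BTZ-200, a log2 difference of 1.20 ± 0.45 (SE, limma adjusted p = 0.407). The difference with drug in the 200 nM subline was also set against the difference with drug in the parental line, at doses of 200 and 7 nM. This difference of differences called 0 of the 10 genes and 0.0748% of all genes (limma). It was -5.91 ± 1.05 for CLU and -1.55 ± 0.51 for BAG3 (SE, limma adjusted p = 0.125 and 0.302), the 2 genes under an unadjusted p of 0.05. For BAG2 it was 0.37 ± 0.41 (SE), with a 95% interval from -0.61 to 1.35.

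Across the 6 groups, CLU on the probe used was highest in CEM/WT_BTZ, followed by CEM/BTZ7, CEM/BTZ200, CEM/BTZ100, CEM/BTZ-200 and CEM/WT. The log2 mean was 11.67 ± 0.31 in CEM/WT_BTZ, 7.85 ± 1.06 in CEM/BTZ7 and 4.40 ± 0.35 in CEM/WT (SD, n = 3, 3 and 2). The lowest neighbours, CEM/BTZ-200 and CEM/WT, differed by 0.71 ± 0.75 on the log2 scale (SE) and were not called apart. The order was different on the second CLU probe. Its log2 means were 7.63 in CEM/WT_BTZ, 7.24 in CEM/BTZ-200, 6.97 in CEM/BTZ7, 6.93 in CEM/WT, 6.61 in CEM/BTZ200 and 6.08 in CEM/BTZ100. BAG3 ran from CEM/WT_BTZ through CEM/BTZ200, CEM/BTZ100, CEM/BTZ7 and CEM/BTZ-200 to CEM/WT. Its log2 mean was 10.96 ± 0.46 in CEM/WT_BTZ, 8.78 ± 0.04 in CEM/BTZ7 and 8.25 ± 0.03 in CEM/WT (SD, n = 3, 3 and 2). CEM/BTZ-200 and CEM/WT differed by 0.23 ± 0.36 (SE), also not called. BAG2 split into a high set of 4 groups, all under drug, and a low set of CEM/WT and CEM/BTZ-200. All values of CEM/BTZ7, CEM/BTZ100 and CEM/BTZ200 lay within the range of CEM/WT_BTZ, whose log2 mean was 13.31 ± 0.30 (SD, n = 3). The log2 mean of BAG2 was 12.09 ± 0.10 in CEM/WT (SD, n = 2). BAG1 was lowest in CEM/WT_BTZ and highest in CEM/BTZ100, and its other 4 groups lay between 33221 and 44117. For CRYAB, HSPB8 and BAG4 the ranges of the replicated groups all overlapped: CRYAB ranged from 76.9 to 232, HSPB8 from 8.56 to 43.9 and BAG4 from 205 to 420 over the 11 samples.

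After these levels had been seen, 2 further comparisons were made. The mean of the 4 groups under BTZ was set against that of CEM/WT and CEM/BTZ-200, and 3 of the 10 genes were called higher, against 2.48% of all genes. BAG2 differed by 1.37 ± 0.19, BAG3 by 1.28 ± 0.23 and CLU by 3.22 ± 0.48 on the log2 scale (SE, limma adjusted p = 0.0193, 0.0387 and 0.0246). For each of these genes all 8 samples under drug were above all 3 without, which held for 2.72% of all genes. For CLU this was so on the probe used, whereas the second probe gave a log2 difference of -0.14, which was not called. The calls were lost without several of the replicates (BAG2 without CEM/WT replicate 1 or 2 or CEM/BTZ7 replicate 1 or 2, CLU without CEM/WT replicate 1 or 2 or CEM/BTZ7 replicate 2, and BAG3 in 7 of 8 cases, adjusted p up to 0.143). The mean of the 4 resistant groups was set against that of the 2 parental groups, and 1 gene was called higher, BAG1, against 8.09% of all genes, and 2 lower, HSPB1 and CLU, against 8.1%. HSPB1 differed by -1.10 ± 0.28 (SE, limma adjusted p = 0.0436). All 6 resistant samples, from 4500 to 8580, were below all 5 parental samples, from 11654 to 22171, which held for 2.38% of all genes. BAG1 differed by 0.67 ± 0.13 (SE, limma adjusted p = 0.0197), with all 6 resistant samples above all 5 parental ones, which held for 3.72% of all genes. CLU differed by -1.64 ± 0.38 (SE, limma adjusted p = 0.0337), but its groups overlapped. Against CEM/WT alone CLU was higher by 3.54 in CEM/BTZ7, 1.59 in CEM/BTZ100, 1.98 in CEM/BTZ200 and 0.71 in CEM/BTZ-200 (log2), with only CEM/BTZ7 called. The negative value thus reflects the high CLU of CEM/WT_BTZ within the parental mean. On the second CLU probe it was -0.56 and not called (limma adjusted p = 0.137). The HSPB1 call was lost in 6 of 8 cases with 1 replicate left out (adjusted p up to 0.167), and those of BAG1 and CLU in 4 of 8 each.

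**Figure D3:**
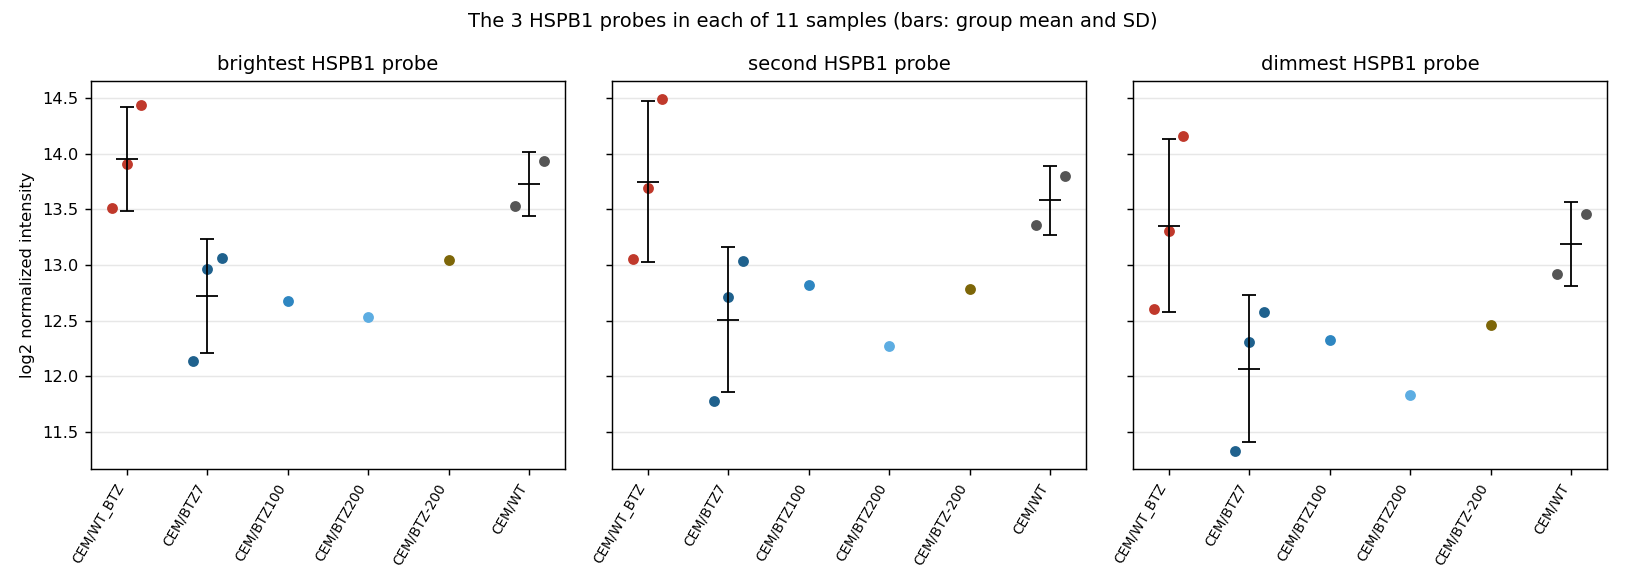
Log2 normalized intensity (vertical axis) of the 3 HSPB1 probes in each of the 11 samples by group (horizontal axes), where points are samples and bars give the group mean and SD for groups with replicates. The 3 panels show a like order of samples, with CEM/BTZ7 replicate 1 low and CEM/WT_BTZ replicate 3 high in each.

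Several genes had more than 1 probe. The 2 BAG3 probes moved together, as did the 3 HSPB1 probes. The CLU probes did not. The probe used is annotated to a CLU transcript and the second probe to an expressed sequence tag assigned to the gene. The second probe was the brighter of them in 4 of the 11 samples, both CEM/WT samples, CEM/BTZ-200 and CEM/BTZ7 replicate 1, and its median intensity was 137, against 114 for the probe used. The second probe had 196, 169 and 236 in CEM/WT_BTZ, against 137 and 109 in CEM/WT, with no overlap and the uncalled difference given above. It had 182, 110 and 98.2 in CEM/BTZ7, 67.5 in CEM/BTZ100, 97.7 in CEM/BTZ200 and 151 in CEM/BTZ-200. The other CLU values given here hold for the probe used only, and which part of the gene each probe reads was not examined. The HSPB8 and CRYAB probes also differed, though none was called. The second HSPB8 probe had 28.2, 15.5 and 19.3 in CEM/WT_BTZ, against 12.6 and 8.73 in CEM/WT, all above the background of their samples and without overlap. Its log2 difference was 0.95 ± 0.45, against -0.35 ± 0.66 for the probe used (SE, limma adjusted p = 0.229 and 0.784 over all probes). The second CRYAB probe, which exceeded background in 7 of 11 samples, had 22.4 in CEM/BTZ100, against 13.99, 6.42 and 7.24 in CEM/WT_BTZ. Its log2 difference was 1.22 ± 0.45, against -0.49 ± 0.67 for the probe used (SE, limma adjusted p = 0.165 and 0.734 over all probes).

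**Figure D4:**
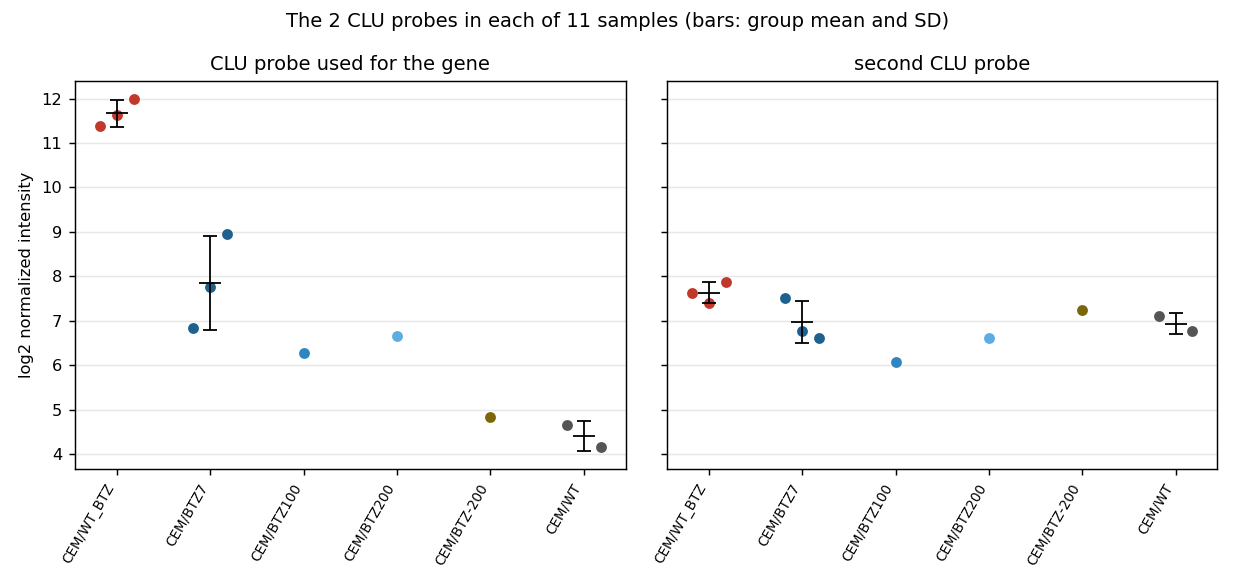
Log2 normalized intensity (shared vertical axis) of the 2 CLU probes in each of the 11 samples by group (horizontal axes), where points are samples and bars give the group mean and SD for groups with replicates. The probe used spans 17.8 to 4093 in intensity and the second probe 67.5 to 236.

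The genes whose log2 levels were most like those of CLU, BAG3 and BAG2, the 3 members with the largest difference between CEM/WT_BTZ and CEM/WT, were found by Pearson correlation over the 11 samples, which share arrays, normalization and groups. For CLU they were DNAJC3, an HSP40 of the endoplasmic reticulum (r = 0.979), GPATCH1 (0.969) and HRG (0.963). For BAG3 they were CEBPG, a partner of the stress factor ATF4 (0.986), OSER1 (0.981) and E2F6 (0.981). For BAG2 they were PSMC6, an ATPase subunit of the proteasome cap (0.971), NRDC (0.966) and CCDC80 (0.952). Among the members themselves, CLU and BAG3 had a correlation of 0.901, and BAG3 and BAG1 one of -0.80.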

How the data were processed

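RNA of 11 CCRF-CEM samples in 6 groups was measured on Agilent arrays, with Cy3 as the label of 6 samples and Cy5 of 5. The deposited intensities are spot signals from the authors' run of Agilent Feature Extraction, not yet normalized across arrays. The deposited log2 values were made by the authors with limma (background correction, loess, quantile normalization) and were used as an alternative. Tool versions of the authors are not given in the sources used here. For CEM/BTZ7, intensity columns 1, 2 and 3 matched columns 2, 3 and 1 of the log2 values best by rank (the other 8 matched by name); the intensities were used with the numbers and dyes of their own names.

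Intensities of 45015 spots were quantile-normalized, put on the log2 scale and averaged per probe. Probes above the 95th percentile of 153 negative controls in 2 or more samples entered the tests, and the probe of highest mean log2 intensity over the samples stood for its gene. Current symbols came from gene identifiers for 29203 probes and from accessions for 11, and 30 kept the deposited symbol. Left out were 84 probes with several symbols and 11672 with none.

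The 6 groups and the dye were fitted over 17372 genes with limma 3.58.1 in R 4.3.3 (residual degrees of freedom 4, prior 2.40). Tests were 2-sided with Benjamini-Hochberg adjustment over all genes, and called means an adjusted p under 0.05. The dye term called 0 genes. The code was tested on simulated data. The 10 genes were named in full, the 3 genes most correlated with each of the 3 members of largest difference were named, and up to 4 called genes per other list. The members and lists were chosen with earlier results of these data known. Alternatives were other scalings, the log2 values of the authors, normexp, no dye term, dyes by rank match, fewer groups, a replicate block, other filters, the mean over probes, and each replicate left out. Promoters are from RefSeq.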

Additional observations from a re-analysis of the deposited data

How the results depend on the processing

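Over 1110 values of single genes under other settings, 1066 kept their side of the threshold, 18 lost it, 24 gained it and 2 reversed. Of those that kept their side, 53 changed sign while not called in either fit. The 2 reversals came from the second CLU probe, chosen after seeing the data: -0.00177 for CEM/BTZ7 minus CEM/WT (adjusted p = 0.999) and -0.144 for BTZ minus no BTZ (adjusted p = 0.829). With 1 replicate left out, 960 values gave 900 kept, 57 lost, 3 gained and 0 reversed, and 63 of those kept changed sign while not called. In both sets only values called in the main fit could be lost, and most values were not called there. The share kept therefore does not measure how stable the calls were.

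The count of the 10 genes called moved by more than 1.5 times, or to or away from 0, as follows. For CEM/BTZ7 minus CEM/WT (1 called), it was 2 with no dye term, with normexp, with the 2 groups alone and with a stricter filter, and 3 with the replicate block. For CEM/BTZ7 minus CEM/WT_BTZ (4 called), it was 2 with scaling to the 75th percentile, without BAG1 and HSPB1. For CEM/BTZ200 minus CEM/WT_BTZ (1 called), it was 2 with no dye term, with normexp and with a stricter filter, and 4 with the block. For CEM/BTZ100 minus CEM/WT (0 called), it was 1 with the block. For CEM/BTZ200 minus CEM/WT (0 called), it was 1 with scaling to the 75th percentile, with the log2 values of the authors and with the block, each time BAG2. Smaller moves were these. For CEM/WT_BTZ minus CEM/WT (4 called), it was 3, without BAG1, with scaling to the 75th percentile, the log2 values of the authors, dyes by rank match and only the groups compared. For CEM/BTZ7 minus CEM/WT_BTZ it was 3 with no filter, without HSPB1. For CEM/BTZ100 minus CEM/WT_BTZ (3 called), it was 2 with the mean over probes and 4 with the block. For resistant minus parental (3 called), it was 2 with the 75th percentile and with the mean over probes, and 4 with a stricter filter and with the block. For BTZ minus no BTZ (3 called), it was 2 with the mean over probes. The cause was not tested. With 1 replicate left out, counts ranged from 2 to 4 for CEM/WT_BTZ minus CEM/WT, 2 to 3 for CEM/BTZ7 minus CEM/WT_BTZ, 0 to 2 for CEM/BTZ7 minus CEM/WT, 1 to 3 and 1 to 2 for CEM/BTZ100 and CEM/BTZ200 minus CEM/WT_BTZ, 0 to 3 for BTZ minus no BTZ and for resistant minus parental, and 0 to 0 for the others.

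Same-numbered replicates of different groups had correlated deviations from their group means (r from 0.0859 to 0.765 over 7 pairs). Pairs of unlike numbers had r from -0.607 to 0.461 over 14 pairs. The deviations cancel within each group, so these 14 pairs are tied to the 7 and are no independent contrast. Not every same-numbered pair exceeded 0.1 and no source pairs the replicates, so the block stayed an alternative. The block also raised the count over all genes from 2692 to 6518 in CEM/WT_BTZ minus CEM/WT, from 3867 to 7652 in CEM/BTZ7 minus CEM/WT_BTZ and from 597 to 1420 in CEM/BTZ7 minus CEM/WT. With only the groups compared, CEM/WT_BTZ minus CEM/WT called 1778 genes. Of the 10 genes, 5 were called with the block in CEM/WT_BTZ minus CEM/WT, STUB1 among them (-0.79, adjusted p = 0.0176), and 6 in CEM/BTZ7 minus CEM/WT_BTZ, BAG5 (0.58, adjusted p = 0.0166) and STUB1 (0.40, adjusted p = 0.0499) among them. The same-numbered pairs of CEM/BTZ7 and CEM/WT_BTZ had r from 0.577 to 0.765. The groups of 1 sample, and the weak signal of HSPB8 near background, limit what could be detected.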
